A study of Mus musculus with 12 samples.

Results

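Splenic B cells of C57BL/6Babr mice were activated for 48 h with LPS, a bacterial ligand of TLR4, and then exposed to etoposide with or without KU55933. Etoposide is a poison of type II topoisomerases that leaves DNA double-strand breaks, and KU55933 is an inhibitor of ATM, the kinase that signals such breaks. The comparison described here set 4 mRNAseq libraries of cells given LPS (10 µg/ml), KU55933 (10 µM) and etoposide (20 µM, 4 h) against 4 libraries of cells given LPS and etoposide alone, 8 of the 12 libraries of the series. The inhibitor was added 47 h after LPS, 1 h before etoposide. The other 4 libraries, from cells given LPS only, serve as a reference level and were not tested against. B cells had been purified from spleen with a magnetic isolation kit, and all 3 groups carried LPS and an unaltered genotype as far as the labels state. No cells received KU55933 without etoposide, so the inhibitor is described only in damaged cells, and its effects on ATM and on other proteins cannot be told apart.

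ATM is activated at double-strand breaks and phosphorylates p53, Chk2, histone H2A.X and many other proteins. p53, a transcription factor that is stabilised after damage, then raises genes of cell cycle arrest, cell death, DNA repair and its own feedback. In lymphocytes ATM also acts in antigen receptor rearrangement and class switching, in which breaks are made and rejoined on purpose. Other signals of a damaged or stressed cell run through NF-kB, the interferon system and the integrated stress response, in which phosphorylation of the initiation factor eIF2α lets the transcription factor ATF4 accumulate.

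The values are normalized counts, and the deposited columns of a condition are proportional to each other. They hold the mean that the authors' model fitted for the condition multiplied by the size factor of the library, so that after division by the size factors the 4 libraries of a condition have the same value. The level of a gene is therefore given once per condition. The spread between the libraries enters only through the deposited standard error of the log2 fold change, which follows each fold change after the sign ±, with n = 4 libraries in each condition. Column totals before division by the size factors ran from 22523516 to 30575195 in the etoposide libraries and from 20400994 to 25052093 in the libraries with KU55933. The median standard error was 0.30 for genes with a mean count under 100 and 0.10 for genes with a mean of 1000 or more, so small changes could be seen only in abundant transcripts. Levels are not divided by transcript length and are compared between conditions, not between genes. The 2 conditions used different Illumina indexes, which cannot be told apart from the treatment.

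All 8 B cell marker genes passed the filter on low counts, and their summed level was 363467 with etoposide and 379015 with KU55933. Markers of other cells were scarce. The 12 macrophage and monocyte markers summed to 493 and 449, with 7 tested and none called. The 10 T cell markers summed to 326 and 292, with 8 of them under 10 counts in both conditions, and the 8 neutrophil markers to 27.0 and 12.0. Trac, a T cell receptor gene, and Mpo, a neutrophil enzyme, were called lower at 13.6 and 13.8 counts with etoposide. Trac had 2.89 counts with LPS and 5.36 with both drugs, and Mpo had 1.26 and 3.32. Both passed the filter only through their etoposide level, which favours falls. The dendritic cell markers went in sum from 1910.3 to 3390, of which Flt3, a cytokine receptor that B cells can carry too, made 1640.3 and 2919.5. Of the 4 tested dendritic cell markers 1 was called higher and 1 lower. Zbtb46 went from 180 to 404 and Xcr1 from 69.3 to 44.9. In a bulk sample, fewer cells of a type and less RNA per cell cannot be told apart.

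KU55933 moved a large part of the transcriptome of the damaged B cells. Of 15567 genes tested, 4577 (29.4%) passed an adjusted p of 0.01, in a two-sided Wald test of the fitted log2 ratio against its standard error with Benjamini-Hochberg adjustment. With the inhibitor 2059 genes (13.2%) were higher and 2518 (16.2%) were lower. These shares are the background against which each gene family below is read. They include noncoding genes and pseudogenes. Over protein-coding genes alone 15.3% were higher and 18.0% lower. Most changes were small, with medians of 0.52 among the higher and −0.66 among the lower genes on the log2 scale. The falls reached further: 696 genes fell and 272 rose by at least 2-fold, and 125 fell and 25 rose by at least 4-fold. Genes can pass the filter on low counts through their etoposide level alone, which favours falls. In the group of protein-coding genes with the lowest mean counts, of 10 equal groups, 16.7% were lower and 3.18% higher. The counts of 2-fold and 4-fold changes were not repeated with a stricter filter. The median over all tested genes was −0.04. Scaling by library totals gave 2403 higher and 2198 lower genes, so which side was larger depended on the scaling. A minimum of 10 counts in every library gave 2012 higher and 2131 lower.

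**Figure D1:**
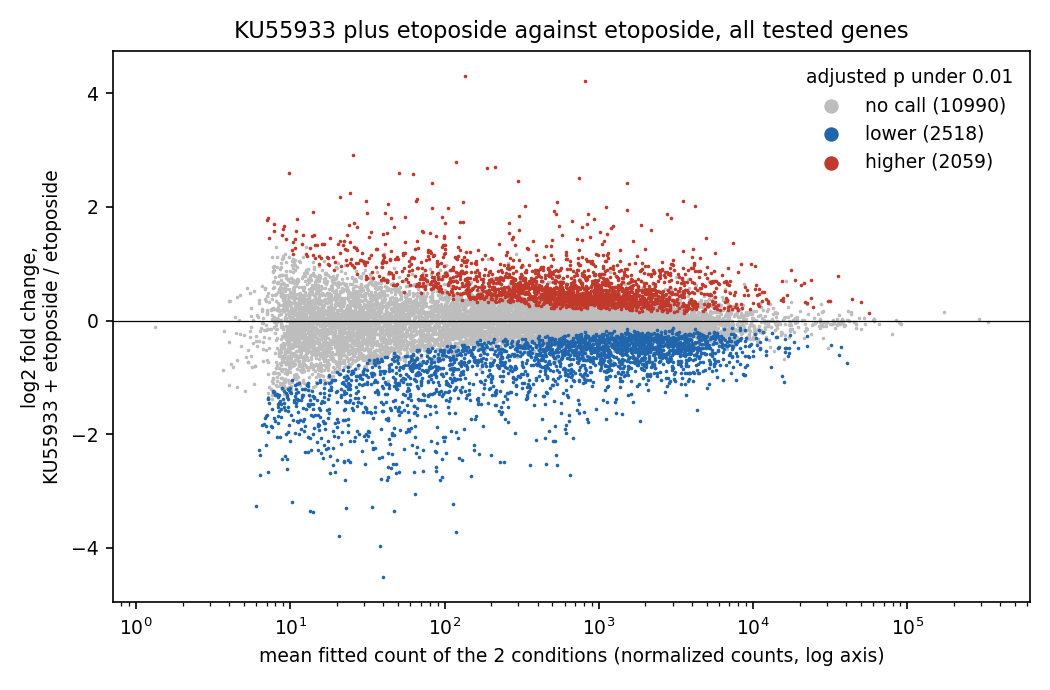
Log2 fold change of KU55933 with etoposide over etoposide (vertical axis) against the mean fitted count of the 2 conditions (horizontal axis, log scale), 1 point per tested gene. Red points are the 2059 genes higher with KU55933, blue points the 2518 lower genes and grey points the genes past no threshold, and the lower genes extend further from 0. Genes can pass the filter on low counts through their etoposide level alone, which favours falls.

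The largest rises belonged to genes of very different function. Among genes with a mean count of at least 100, Heatr9 rose most, from 13.1 to 259 normalized counts, a log2 fold change of 4.31 ± 0.23 (95% interval 3.86 to 4.75, adjusted p = 5.23e-77). Cxcl10, a chemokine that draws cells carrying CXCR3, rose from 82.7 to 1540.3 counts (4.22 ± 0.26, adjusted p = 2.84e-55). Ccl5, a chemokine of T cells and monocytes, rose from 222 to 1258 (2.50 ± 0.16), and Ccrl2, a nonsignalling receptor of the chemokine receptor family, from 479 to 2568 (2.42 ± 0.17). The other rises among the first 10 were those of Tbc1d30, a Rab GTPase activator (2.79 ± 0.24), Gng4, a G protein γ subunit (2.70 ± 0.25), the metallothionein Mt2 (2.69 ± 0.40), the linker histone Hist1h1c (2.46 ± 0.23) and the interferon-stimulated Ifit1 (2.11 ± 0.18) and Ifit3b (2.09 ± 0.25). Cxcl10 and Heatr9 stood apart from the rest, with intervals that lay above those of the other 8 genes.

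The 10 largest falls were those of genes that had under 50 normalized counts with LPS alone and at least 204 with etoposide. Notch3, a receptor of the Notch family, had 5.90 counts with LPS, 1121 after etoposide and 169 after both drugs (−2.73 ± 0.14, adjusted p = 2.13e-76). Cnga3, a subunit of the cyclic nucleotide-gated channel of cone photoreceptors, fell furthest, from 220.3 to 16.7 (−3.72 ± 0.23). Ppp1r13l, which encodes the p53 inhibitor iASPP, fell from 917 to 157 (−2.55 ± 0.23). Several encode proteins best known from other tissues: Kif17 is a neuronal kinesin (−2.73 ± 0.16), Nid2 a basement membrane protein (−2.53 ± 0.16), Scn4b a sodium channel subunit (−2.49 ± 0.18) and Evpl a protein of the cornified envelope (−2.46 ± 0.21). Tmem40 (−3.22 ± 0.28), Arhgap23, a GTPase activator (−2.54 ± 0.14), and Nipal4 (−2.49 ± 0.21) complete the list. All 10 remained above their LPS level with the inhibitor.

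**Figure D2:**
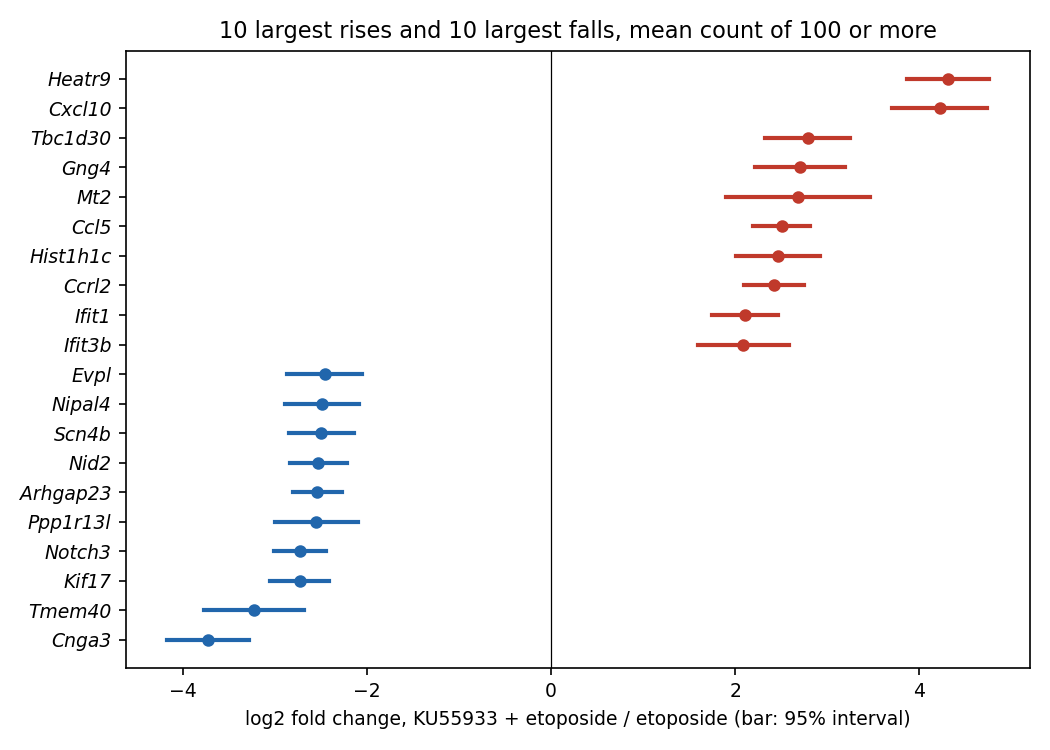
Log2 fold change of KU55933 with etoposide over etoposide for the 10 largest rises (red) and the 10 largest falls (blue) among genes with a mean count of at least 100, with 95% intervals from the standard errors as bars. Heatr9 (4.31) and Cxcl10 (4.22) stand above the other rises, which lie between 2.09 and 2.79.

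Gene families were described by their calls and medians, without a test of the list. The 70 families hold 1942 of the tested genes, of which 55 are in more than 1 family, so the lists are not fully separate. Of the 61 families with at least 10 tested members, 12 had a share of higher genes at least 2 times the background, 10 had such a share of lower genes, and 24 had fewer calls in all than the background of 29.4%. The families with such a share of lower genes were the 3 lists of p53 targets, TNF receptors, mitotic kinases, kinesins, nucleotide supply, E2F and retinoblastoma factors, plasmablast genes and Notch genes. Those with such a share of higher genes were the integrated stress response, replication-dependent histones (where the filter on low counts favours rises), 4 lists of the interferon system, MHC class I genes, autophagy genes, AP-1 factors, Foxo and Klf factors, Polycomb and DNA methylation enzymes, and the list of snoRNA hosts and nuclear noncoding RNAs. With scaling by library totals or TMM factors all of these lists stayed past that mark, and the NF-kB list joined those of higher genes. The mark would be higher if the shares over protein-coding genes alone were used. The TNF receptors (33.3% lower), Notch genes (33.3%) and nucleotide supply (34.8%) would then not have passed. Nor would the Gbp and Irg genes (26.7% higher) or the Polycomb and DNA methylation enzymes (28.1%).

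**Figure D3:**
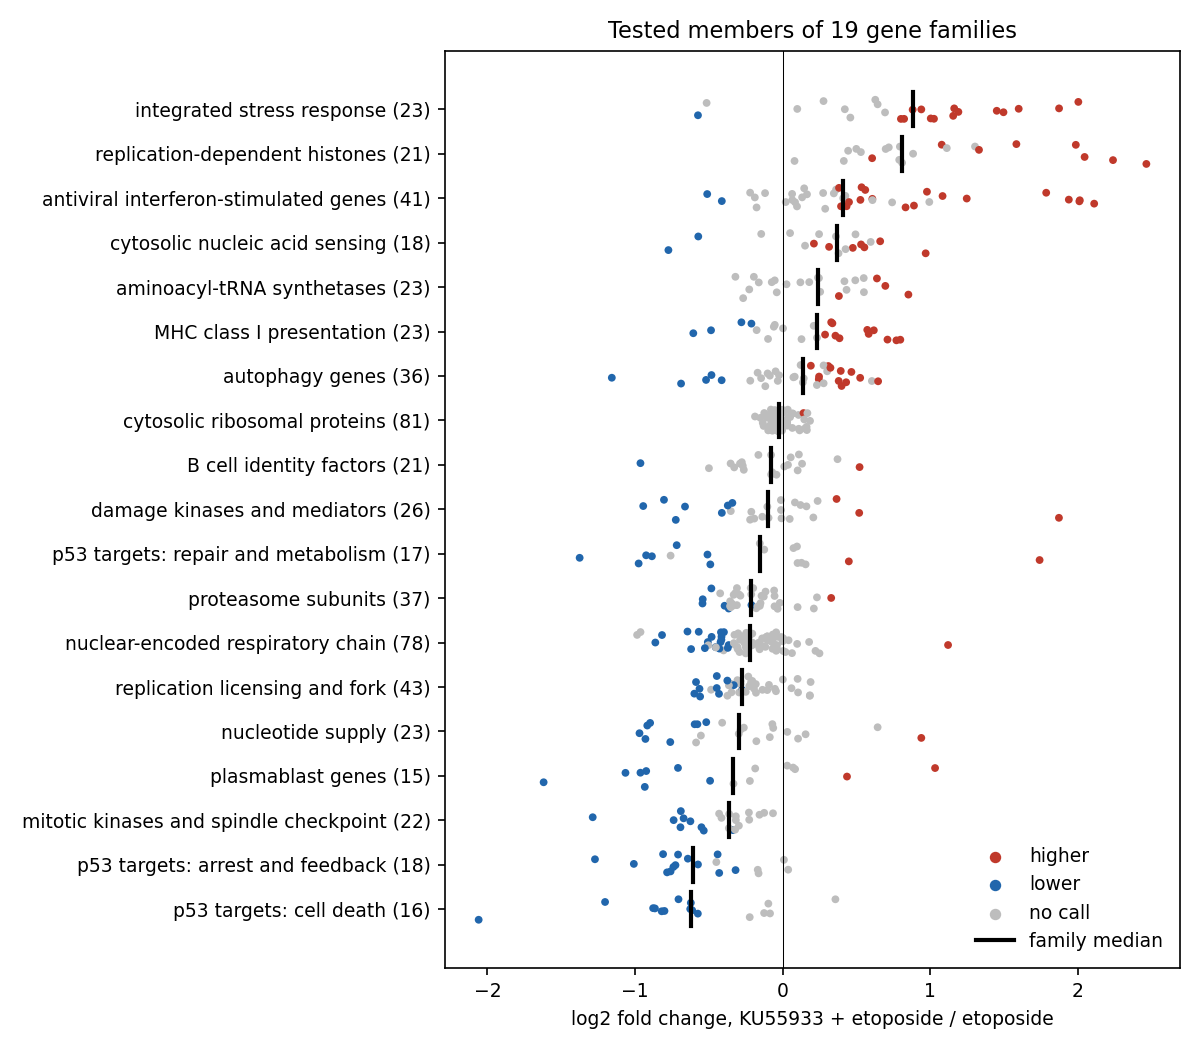
Log2 fold change of KU55933 with etoposide over etoposide for the tested members of 19 families, 1 point per gene, with the number tested beside each name and the family median as a black bar. Red and blue points are members called higher and lower. The medians run from −0.62 for p53 targets of cell death to 0.88 for the integrated stress response, and the 81 ribosomal protein genes lie close to 0.

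p53 targets fell with the inhibitor where they serve arrest, feedback or death, and less evenly where they serve repair and metabolism. Trp53 itself had 5917 counts with LPS, 5497 after etoposide and 4933 when both drugs were given (−0.16 ± 0.08, adjusted p = 0.121). Of 18 tested targets of arrest and feedback, 13 were lower and none higher, with a median of −0.61. Mdm2, the ubiquitin ligase of p53, fell from 16546 to 9435 (−0.81 ± 0.05), and Ppm1d, the phosphatase Wip1 that reverses ATM phosphorylation, from 3658 to 1818 (−1.01 ± 0.06). Ddit4l, a brake of mTOR, fell furthest of the list, from 823 to 341 (−1.27 ± 0.12). Ccng1 (−0.74 ± 0.08), Plk2 (−0.71 ± 0.18), Zmat3 (−0.64 ± 0.07) and Btg2 (−0.43 ± 0.13) also fell. Cdkn1a, which encodes the CDK inhibitor p21, had 409.6, 13352 and 10702 counts with LPS, etoposide and both drugs. Its fall was small (−0.32 ± 0.10, adjusted p = 0.00817) and did not pass the threshold when the libraries were scaled by their totals or by TMM factors. Gadd45a (0.04 ± 0.11), Plk3 (0.01 ± 0.13), Sfn (−0.16 ± 0.23), Psrc1 (−0.17 ± 0.10) and Trp53cor1 (−0.45 ± 0.20) were not called.

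Among the 16 p53 targets of cell death, 11 fell and none rose, with a median of −0.62. Perp, a membrane protein of p53-dependent death, fell from 198 to 47.5 (−2.06 ± 0.29, adjusted p = 1.45e-11). Its level with LPS was 4.61. The 3 death receptors fell: Fas from 2549.8 to 1388 (−0.88 ± 0.07), Tnfrsf10b, the receptor of TRAIL, from 4727 to 3174 (−0.57 ± 0.08), and Eda2r from 123 to 53.4 (−1.20 ± 0.19). Pidd1 (−0.87 ± 0.10), the platform of caspase-2 activation, and Apaf1 (−0.71 ± 0.11), the core of the apoptosome, fell as well. The BH3-only genes of the list were not called. Bbc3, which encodes Puma, had a log2 fold change of 0.36 ± 0.21 and Pmaip1, which encodes Noxa, −0.13 ± 0.16, while Bax, the pore former, had −0.22 ± 0.09.

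The third list of p53 targets split. Of its 17 tested genes 7 fell and 2 rose. Polk, a translesion polymerase, fell from 4253 to 2585 (−0.72 ± 0.08), Ercc5, the endonuclease XPG, from 6122 to 4358 (−0.49 ± 0.08), and Ephx1, an epoxide hydrolase, from 3517 to 1903 (−0.89 ± 0.21). The largest fall, of the phosphatase gene Ptpn14, had a wide error (−1.38 ± 0.44). Gls2, a glutaminase of mitochondria, rose from 57.6 to 192 (1.74 ± 0.26, adjusted p = 7.02e-10), and Ddb2, which recognises ultraviolet lesions, from 464 to 633 (0.45 ± 0.09). Their etoposide levels were 57.6 and 464 beside LPS levels of 24.7 and 504. Xpc (0.07 ± 0.08) and Rrm2b (0.16 ± 0.14) were not called.

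**Figure D4:**
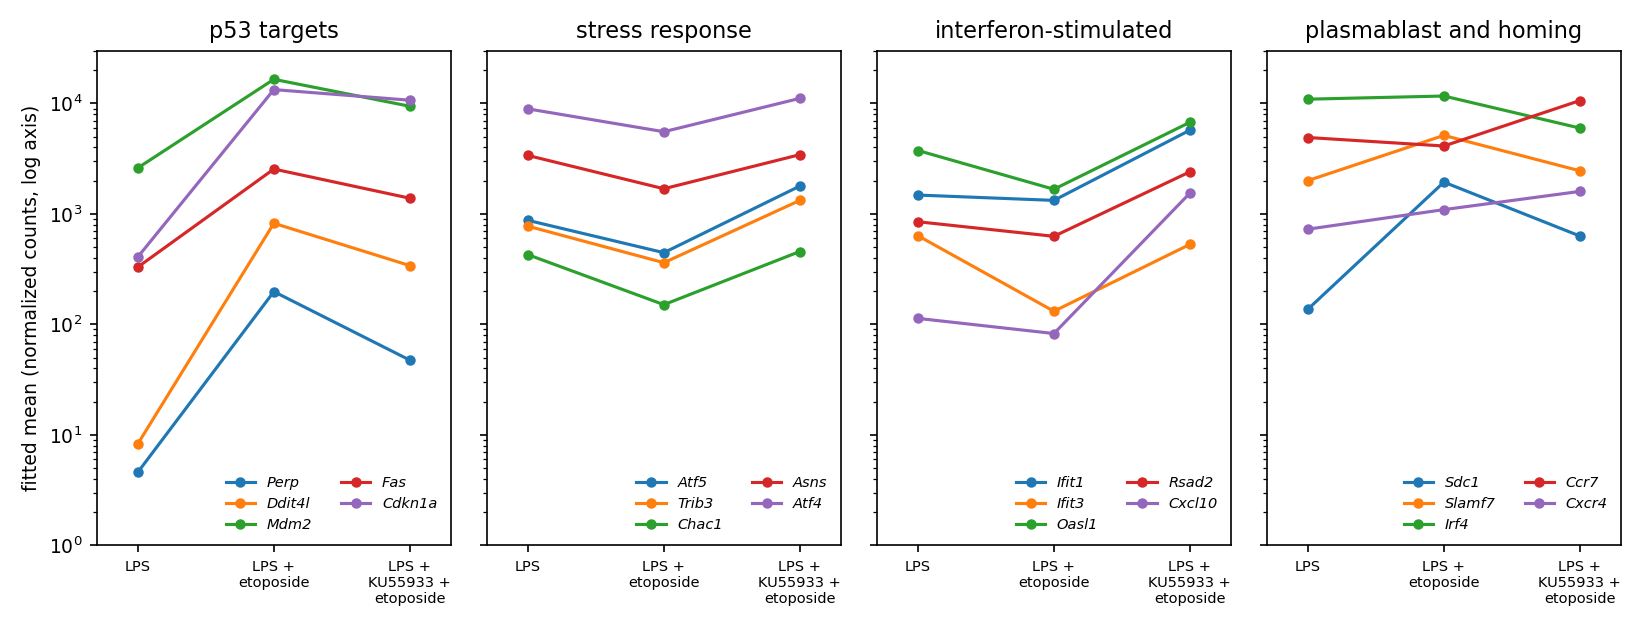
Fitted mean in normalized counts (vertical axis, log scale) in the 3 conditions of the series, LPS alone, etoposide added, and both drugs added, 1 line per gene. Perp goes from 4.61 to 198 and 47.5, Atf4 from 8933 to 5548 and 11119, Ifit3 from 634 to 132 and 529.7, and Sdc1 from 138 to 1940.2 and 631.

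The kinases and mediators of the damage response changed in both directions, 3 of 26 higher and 7 lower. The mRNA of the inhibited kinase, Atm, rose from 5414 to 7754 (0.52 ± 0.09, adjusted p = 2.57e-07), to a level near the 8250.0 counts with LPS. H2afx, which encodes the histone variant H2A.X, had the largest rise, from 226 to 828 (1.87 ± 0.23, adjusted p = 1.31e-14), below its LPS level of 1879.9. Trp53bp1, the reader of modified nucleosomes at breaks, rose from 1469 to 1892 (0.36 ± 0.08). Chek2, the checkpoint kinase downstream of ATM, fell from 1960.5 to 1123 (−0.80 ± 0.11), and Wee1, the inhibitory kinase of CDK1, from 413 to 214 (−0.94 ± 0.12). Claspin and Tipin, which serve the ATR branch at replication forks, fell by 1.58-fold (Clspn, −0.66 ± 0.14) and 1.65-fold (Tipin, −0.72 ± 0.15). Atr (0.21 ± 0.09) and Prkdc (−0.10 ± 0.13), the sister kinases of ATM, were not called.

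Of the genes of repair, those of homologous recombination had 9 of 31 members lower and 3 higher. The nucleases Dna2 (−0.79 ± 0.18) and Exo1 (−0.61 ± 0.13), which resect ends, fell. Brca1 (−0.42 ± 0.11), Bard1 (−0.45 ± 0.10) and Brca2 (−0.26 ± 0.06) were lower by less. Mus81, a nuclease of branched DNA, rose (0.53 ± 0.09). In end joining 2 of 10 rose, Polm (0.44 ± 0.11) among them, and 2 fell, Xrcc6, which encodes Ku70 (−0.44 ± 0.12), and Poll (−0.29 ± 0.07). Of the targets of etoposide, Top2a, the isoform of dividing cells, fell from 9254 to 6242 (−0.57 ± 0.13). Top2b had 6102 and 5272 counts (−0.21 ± 0.12, not called), and the difference between these genes was not tested. Tdp1, which removes stalled topoisomerase I, rose (0.44 ± 0.15), and Tdp2, which acts on topoisomerase II, was not called (0.13 ± 0.10). Nucleotide excision repair had 3 higher and 2 lower of 20, near the background.

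The Bcl2 family governs apoptosis and the caspases carry it out. Of the 9 tested pro-death members only Bmf, a BH3-only protein of growth factor withdrawal, was called, and it rose from 636 to 1089 (0.78 ± 0.17). Of 7 pro-survival members 3 rose and 2 fell. Bcl2l1, which encodes Bcl-xL, fell from 1809 to 1243 (−0.54 ± 0.12) and Mcl1 fell from 12440.5 to 9620.4 (−0.37 ± 0.07). Bcl2l2 (0.35 ± 0.08), Bcl2a1a (0.32 ± 0.08) and Bcl2a1d (0.28 ± 0.08) rose. The Bcl2a1 copies are nearly identical, so that their separate counts are uncertain. Of 8 tested caspases 2 rose, the initiators Casp9 (0.42 ± 0.07) and Casp2 (0.38 ± 0.11), and 2 fell. Of 21 TNF receptors 7 fell. The single rise was that of Tnfrsf13b, which encodes TACI, a receptor of BAFF and APRIL on B cells (from 6308 to 8650.3, 0.46 ± 0.11).

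Of 22 tested members of the mitotic kinase and checkpoint list 9 fell and none rose. The 9 called genes included Cdc20, the activator of the anaphase-promoting complex (from 2290.3 to 939, −1.29 ± 0.19), Aurkb (−0.69 ± 0.10), Incenp (−0.74 ± 0.12), Tpx2 (−0.69 ± 0.14), Cdk1 (from 836 to 525, −0.67 ± 0.15) and Bub1b (−0.63 ± 0.15). With scaling by totals or by TMM factors 7 of the 22 were called. The kinesins had 11 of 29 lower and 3 higher. The neuronal Kif17 fell furthest (−2.73 ± 0.16), and kinesins of the spindle and of cytokinesis were among the falls, such as Kif20a (−1.17 ± 0.17), Kif18b (−1.12 ± 0.14), Kif23 (−0.71 ± 0.12) and Kif11 (−0.61 ± 0.14). The 3 that rose, Kif3a (0.67 ± 0.12), Kif3c (1.06 ± 0.13) and Kif7 (1.16 ± 0.26), act in transport and at the cilium, as Kif17 does. Of the 19 centromere proteins Cenpe (−0.83 ± 0.14) and Cenpf (−0.59 ± 0.11) fell, while Cenpa, the centromeric histone H3 variant, rose from 1411 to 2533 (0.84 ± 0.10) and Cenpm rose (0.51 ± 0.15).

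Cyclins and their inhibitors moved apart by member. Ccnf (−1.05 ± 0.10), Ccne2 (−0.98 ± 0.14) and Ccna2 (−0.67 ± 0.18) fell, and Ccnd2 (−0.04 ± 0.11), Ccnd3 (0.26 ± 0.10) and Ccnb1 (−0.36 ± 0.22) were not called. Cdkn1b, which encodes p27, rose from 2458 to 4189 (0.77 ± 0.15), a value close to its 4187 counts with LPS. Cdkn2d rose (0.61 ± 0.13), and Cdkn2c (−1.10 ± 0.12) and Cdkn2b (−1.36 ± 0.34) fell. Of 19 E2F and retinoblastoma factors 9 fell, led by the repressor E2f7 (from 620.4 to 248, −1.32 ± 0.14), and Lin37 of the DREAM complex rose (0.47 ± 0.11).

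Of 43 replication genes 10 fell, none rose and 33 were not called, with Prim1 (−0.60 ± 0.12), Mcm7 (−0.56 ± 0.12) and Pcna (−0.45 ± 0.13) among the falls. Both other scalings called 1 member higher. The share of lower genes was 23.3%, against the background of 16.2%. Of 23 genes of nucleotide supply 8 fell, with a median over the list of −0.30 beside −0.27 for replication. Cad, which opens pyrimidine synthesis, fell from 20356 to 10391 (−0.97 ± 0.14), Rrm2, the regulated subunit of ribonucleotide reductase, from 9466 to 4969 (−0.93 ± 0.15), and Gart of purine synthesis from 5279 to 2833 (−0.90 ± 0.16). The single rise was that of Mthfd2, the mitochondrial folate enzyme and a target of ATF4 (from 3459 to 6632, 0.94 ± 0.25).

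Replication-dependent histone genes, whose mRNAs mostly end in a stem-loop without a poly(A) tail, are poorly captured by a library that selects poly(A). Of 65 such genes listed 21 passed the filter, and 13 of these were under 10 counts in at least 1 condition. Of the 8 with at least 10 counts in every library 5 rose and none fell. Hist1h1c, the linker histone H1.2, rose from 91.2 to 503 (2.46 ± 0.23), with 189.6 counts with LPS. Hist1h2bc rose from 33.3 to 132 (1.99 ± 0.26) and Hist3h2a from 16.8 to 69.5 (2.05 ± 0.26). Hist2h2be (0.61 ± 0.16) and Hist1h4i (1.08 ± 0.27) rose by less.

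The integrated stress response had the highest share of rising genes of any family. Of its 23 tested members 14 rose (60.9% against the 13.2% background) and 1 fell, with a median of 0.88. Atf4, the central transcription factor, rose from 5548 to 11119 (1.00 ± 0.19, adjusted p = 1.22e-06). Its relative Atf5 rose from 446 to 1787 (2.00 ± 0.26, adjusted p = 1.37e-13), and Ddit3, which encodes CHOP, from 701 to 1568 (1.16 ± 0.17). The feedback arm rose with them: Trib3, a pseudokinase that binds ATF4, from 362 to 1325 (1.87 ± 0.28), and Ppp1r15a, the phosphatase subunit GADD34 that reverses the phosphorylation of eIF2α, from 3463 to 7901 (1.19 ± 0.17).

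Genes of the metabolic arm rose too. Asns, asparagine synthetase, went from 1690.0 to 3438 (1.02 ± 0.23), Chac1, which degrades glutathione, from 151 to 457 (3.03-fold, standard error 0.38 on the log2 scale), Pck2, the mitochondrial PEP carboxykinase, from 2658 to 7263 (1.45 ± 0.19), and Slc3a2, a chain of amino acid transporters, from 3918 to 7213 (0.88 ± 0.19). Vldlr (1.50 ± 0.35), Nupr1 (1.15 ± 0.36) and Aldh1l2 (0.82 ± 0.21) were also called. The single fall was that of Sesn2 (−0.57 ± 0.12), a gene that p53 drives as well. Slc7a11 (−0.52 ± 0.19), Cebpb (0.10 ± 0.25) and the serine synthesis genes Psat1 (0.42 ± 0.25) and Phgdh (0.28 ± 0.24) were not called. Among the 23 aminoacyl-tRNA synthetases and their scaffold proteins, which charge tRNAs and include known targets of ATF4, 4 rose and none fell: Cars (0.85 ± 0.21), Aars (0.70 ± 0.18), Sars (0.64 ± 0.13) and Wars (0.38 ± 0.13). Their share of higher genes was 17.4%, beside the background of 13.2%, and 19 were not called.

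Promoter windows of the called members are shown because they let the letters of the response be seen beside the values. RefSeq windows of GRCm38.p6, from 250 bases before to 50 bases after each start site, were found for 10182 of the tested genes. The core of the ATF4 response element, searched as TGATGNAA on both strands, was present in 2.88% of these genes, in 8 of 21 genes of the integrated stress response and in 5 of 15 tRNA synthetases. Matches to the different motifs searched were counted separately, whether or not they overlapped. Of the 13 rising stress response genes with a window, 7 held the core. The stretches below run 5′ to 3′ along the gene's strand, with the match in capitals. These matches are all on the other strand, so that they read as the reverse complement. The windows are Chac1 (chr2:119351024-119351081, plus strand), Vldlr (chr19:27216795-27216852, plus), Pck2 (chr14:55540138-55540195, plus) and Nupr1 (chr7:126625548-126625605, minus).
Chac1: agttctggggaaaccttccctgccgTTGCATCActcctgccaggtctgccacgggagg
Vldlr: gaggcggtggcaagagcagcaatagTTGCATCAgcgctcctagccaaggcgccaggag
Pck2: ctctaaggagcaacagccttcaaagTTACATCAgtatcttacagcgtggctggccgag
Nupr1: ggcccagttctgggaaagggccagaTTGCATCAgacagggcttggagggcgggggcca

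Neighbouring stress pathways did not move with the integrated stress response as a whole. The ER chaperones and unfolded protein response genes had 5 higher and 4 lower of 25. Herpud1 (0.54 ± 0.13) and Hspa5, which encodes BiP (0.33 ± 0.06), rose, Pdia3 (−0.61 ± 0.06) and Canx (−0.38 ± 0.08) fell, and Xbp1 was not called (0.03 ± 0.09). Heat shock genes had 3 higher and 2 lower of 24, with Hspa8 higher (0.33 ± 0.09) and Hsp90aa1 lower (−0.49 ± 0.15). The fall of Hsp90aa1 did not pass the threshold with either of the other scalings. Antioxidant targets of Nrf2 had 5 of 20 lower, among them Prdx1 (−0.79 ± 0.19), Txn1 (−0.67 ± 0.21) and Hmox1 (−0.75 ± 0.23). Gclm (0.65 ± 0.14), Sqstm1 (0.65 ± 0.12) and Fth1 (0.37 ± 0.08) rose.

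The metallothioneins Mt1 and Mt2, small proteins that bind zinc and copper, rose from 131 to 473 (1.85 ± 0.41) and from 50.8 to 327 (2.69 ± 0.40, adjusted p = 3.22e-10). Slc30a1, a zinc exporter and target of the same metal-responsive factor, rose from 545 to 722 (0.40 ± 0.13), and the importer Slc39a10 fell from 2601 to 1646 (−0.66 ± 0.21). Mtf1, which encodes that factor, had a log2 fold change of −0.00 ± 0.06 and was not called.

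Of 36 tested autophagy genes 12 rose and 5 fell. The rises were all under 1 on the log2 scale and included receptors and genes of the ATG8 system, such as Sqstm1 (from 4664 to 7299, 0.65 ± 0.12), Optn (0.52 ± 0.09), Map1lc3b (0.47 ± 0.08), Gabarapl1 (0.39 ± 0.12) and Atg12 (0.31 ± 0.07). The falls were led by Wipi1 (from 487 to 218, −1.16 ± 0.11) and Ulk1, the initiating kinase (from 5019 to 3114, −0.69 ± 0.08).

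Genes of the interferon system were higher with KU55933. Of 41 antiviral interferon-stimulated genes 18 rose (43.9%) and 2 fell, with a median of 0.41. Ifit1, which binds viral RNA caps, rose from 1326 to 5725 (2.11 ± 0.18, adjusted p = 1.3e-28), and its neighbour Ifit3 from 132 to 529.7 (2.01 ± 0.22). Oasl1 rose from 1672 to 6746 (2.01 ± 0.12, adjusted p = 5.63e-56), and Rsad2, which encodes viperin, from 627 to 2404 (1.94 ± 0.14). Isg15, a ubiquitin-like modifier, rose by 1.78-fold (0.83 ± 0.21), and Slfn2 (−0.51 ± 0.10) and Isg20 (−0.41 ± 0.09) fell. Ifit3 and Ifit3b are close copies whose counts may be divided between them. None of the 7 tested macrophage markers was called, and their part in this rise was not tested.

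The same direction was seen in sensors and in the factors that carry the signal. Ifih1, the RNA sensor MDA5, rose from 1412 to 2762 (0.97 ± 0.08), Ddx58, the sensor RIG-I, from 2294 to 3314 (0.53 ± 0.14), and Samhd1, a nucleotide hydrolase, from 4605 to 7278 (0.66 ± 0.08). The kinases below the sensors fell, Ikbke from 5389 to 3151 (−0.77 ± 0.12) and Tbk1 from 3306 to 2224 (−0.57 ± 0.08). Tmem173, which encodes STING, was not called (0.05 ± 0.17). Of 24 regulatory factors 8 rose, with Stat2 (from 2806 to 5506, 0.97 ± 0.11), Irf7 (from 2820.0 to 5354, 0.92 ± 0.24) and Jak2 (0.88 ± 0.18) first. Of the 24, 2 fell, Irf4 among them (−0.96 ± 0.09), and the lowest value in the list was −1.52. Irf1 (0.18 ± 0.13) and Irf9 (0.20 ± 0.10) were not called. Among the 15 Gbp and Irg GTPases Gbp2b (1.06 ± 0.19) and Gbp7 (1.01 ± 0.21) rose, and Igtp fell from 5759 to 3864 (−0.58 ± 0.10). Of the 8 suppressors of cytokine signalling Cish (from 397 to 1287, 1.70 ± 0.18), Socs3 (1.05 ± 0.22) and Socs7 (0.33 ± 0.05) rose and none fell.

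The core of the interferon-stimulated response element, searched as GAAANNGAAA on both strands, was present in 3.84% of tested genes with a promoter window, in 14 of 32 antiviral genes, in all 9 Gbp and Irg genes with a window and in 5 of 19 MHC class I genes. Of the 20 rising antiviral, chemokine and cytokine genes with a window, 7 held it. The stretches of those with the largest rises are shown with each match in capitals, along the gene's strand in GRCm38.p6. They are Cxcl10 (chr5:92349068-92349127, minus strand), Ifit1 (chr19:34640760-34640819, plus), Ifit3 (chr19:34583348-34583407, plus) and Rsad2 (chr12:26456538-26456597, minus), and Ifit1 holds 2 matches.
Cxcl10: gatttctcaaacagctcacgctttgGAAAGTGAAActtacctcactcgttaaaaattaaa
Ifit1: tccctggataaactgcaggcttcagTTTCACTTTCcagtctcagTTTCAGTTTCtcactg
Ifit3: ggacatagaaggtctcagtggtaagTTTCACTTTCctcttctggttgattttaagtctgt
Rsad2: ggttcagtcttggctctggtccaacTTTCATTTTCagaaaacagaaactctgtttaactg

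The cell cycle homology region, searched as TTTGAA on both strands, is an element of promoters that are active in mitosis. It was present in 14.4% of tested genes with a window and in 9 of 16 mitotic kinase and checkpoint genes, among them 4 of the 5 called members with a window. Cdc20 (chr4:118437344-118437386, minus strand), Cdk1 (chr10:69352953-69353008, minus) and Bub3 (chr7:131560302-131560357, plus; −0.34 ± 0.09) are shown.
Cdc20: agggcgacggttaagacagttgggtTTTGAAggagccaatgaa
Cdk1: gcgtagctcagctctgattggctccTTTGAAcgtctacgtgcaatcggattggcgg
Bub3: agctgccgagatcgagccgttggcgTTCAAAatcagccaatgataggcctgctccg

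Several MHC class I heavy chain genes rose. Of 23 genes 11 rose and 4 fell. H2-T23 (from 4600.1 to 7991, 0.80 ± 0.13), H2-M3 (0.77 ± 0.13), H2-Q6 (0.71 ± 0.17), H2-Q7 (0.62 ± 0.16) and H2-D1 (0.34 ± 0.09) rose, though reads may be divided between these similar genes. B2m, the common light chain, did not pass the threshold (−0.05 ± 0.08), nor did Tap1 (0.13 ± 0.09) or Tap2 (0.21 ± 0.09). Nlrc5, the transactivator of class I genes, fell from 5317 to 3798 (−0.49 ± 0.13). MHC class II genes had 2 higher and 2 lower of 15, under the background, with H2-Ob, a subunit that restrains peptide exchange, rising from 2718 to 5180.0 (0.93 ± 0.24).

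Genes induced quickly by signals went both ways. Of 14 AP-1 factors Fosl2 (from 591 to 1555, 1.40 ± 0.44), Jdp2 (1.09 ± 0.30), Atf3 (0.80 ± 0.14), Jund (0.79 ± 0.24) and Batf (0.38 ± 0.12) rose, and Fosl1 fell from 334 to 64.8 (−2.37 ± 0.14, adjusted p = 4.96e-58). Fosb (−0.76 ± 0.23) and Mafk (−0.31 ± 0.09) fell as well. Egr1 and Egr2, zinc finger factors downstream of ERK, fell from 840.0 to 194 (−2.12 ± 0.41) and from 72.6 to 18.0 (−2.01 ± 0.42), and Egr3 was not called (0.01 ± 0.40). Nr4a2 (0.84 ± 0.23), Ier2 (0.69 ± 0.21) and Zfp36, which destabilises cytokine mRNAs (0.41 ± 0.12), rose. Among the MAPK phosphatases Dusp4 rose from 1313 to 4593 (1.81 ± 0.21) and Dusp5 from 438 to 865 (0.98 ± 0.25), while Dusp7 (−1.06 ± 0.12), Dusp9 (−1.28 ± 0.27) and Dusp15 (−2.09 ± 0.25) fell. Of 24 genes of the NF-kB list 4 rose and 2 fell, near the background for rises. With scaling by library totals 8 of the 24 were called higher, beside 2403 of all 15567 genes, and TMM factors gave 8 beside 2380. Nfkbie, an inhibitor (0.71 ± 0.19), Relb (0.50 ± 0.09), Traf1 (0.47 ± 0.10) and Birc3 (0.23 ± 0.08) rose, and Cyld, a deubiquitinase that restrains the pathway, fell (−0.47 ± 0.06).

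Of 34 tested chemokines and cytokines 7 rose and 5 fell. Beside Cxcl10 and Ccl5, Il6 rose from 205 to 492 (1.26 ± 0.15), Il16 from 1085 to 1646 (0.60 ± 0.14) and Tgfb1 from 1432 to 2064 (0.53 ± 0.15). Csf1, a growth factor of macrophages, fell from 1859 to 893 (−1.06 ± 0.12), Lif from 429 to 231 (−0.89 ± 0.14) and Il15 from 81.4 to 21.5 (−1.92 ± 0.24). With LPS alone these 3 stood at 170.1, 9.68 and 17.0 counts. Tnf (−0.37 ± 0.21), Il10 (0.02 ± 0.30) and Ltb (0.68 ± 0.40) were not called.

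Factors of B cell identity had few calls, and more of the genes of the plasmablast, the antibody-secreting cell that LPS-activated B cells form, were called. Of 21 identity factors Tcf3 rose (0.52 ± 0.13) and Irf4 fell, from 11678 to 5988 (−0.96 ± 0.09, adjusted p = 1.77e-23), while Pax5 (0.05 ± 0.13), Spib (0.10 ± 0.10) and Ikzf1 (0.04 ± 0.12) were not called. Of 15 plasmablast genes 7 fell and 2 rose. Sdc1, which encodes CD138, fell from 1940.2 to 631 (−1.62 ± 0.17, adjusted p = 6.9e-19), Slamf7 from 5141 to 2457 (−1.07 ± 0.12), Jchain, the joining chain of IgM and IgA, from 5091 to 2682 (−0.92 ± 0.23), and Prdm1, which encodes Blimp-1, from 1703 to 1211 (−0.49 ± 0.09). The rises were those of Cd28 (1.03 ± 0.30), a costimulatory receptor of T cells and plasma cells, and Derl3 (0.44 ± 0.12), which acts in ER-associated degradation. Xbp1 (0.03 ± 0.09) and Mzb1 (−0.19 ± 0.06) were not called. Of 9 constant region genes Ighg3 rose (0.59 ± 0.18), and Ighm (0.03 ± 0.12) and Igkc (−0.23 ± 0.13) were not called.

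Of 15 activation and costimulation markers 3 rose and 3 fell. Cd86, a costimulator, rose from 1075 to 3263 (3.03-fold, standard error 0.17 on the log2 scale, adjusted p = 5.01e-20), and Cd83 from 8211 to 12687 (0.63 ± 0.18), while the related costimulator Cd80 had the largest of the falls, from 1746 to 1031 (−0.76 ± 0.13). Of 19 homing receptors 4 rose, and 1 fell, S1pr3 (−0.72 ± 0.15). Ccr7, which leads to lymph nodes, rose from 4121 to 10616 (1.37 ± 0.26), S1pr1, the receptor of egress, from 338 to 605 (0.84 ± 0.23), and Cxcr4 from 1094 to 1599 (0.55 ± 0.17). The factors of quiescence had 8 of 20 higher, with Klf2, which drives S1pr1 in T cells, rising from 188 to 321 (0.77 ± 0.22), Tsc22d3, which encodes GILZ, from 922 to 2419.8 (1.39 ± 0.10), and Klf9 from 97.7 to 197 (1.02 ± 0.17). Txnip (−0.89 ± 0.28) and Foxo3 (−0.61 ± 0.14) fell.

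The antigen receptor pathway was mixed, 5 of 31 higher and 8 lower. Cd72, an inhibitory coreceptor, rose from 4374 to 7091 (0.70 ± 0.11), and Nfatc3 rose (0.70 ± 0.10). Nfatc1 (−0.79 ± 0.15), Nfatc2 (−0.83 ± 0.17), the phosphatase Ptpn6 (−0.63 ± 0.11) and Plcg2 (−0.48 ± 0.10) fell. Ms4a1, which encodes CD20, fell from 20441 to 13245 (−0.63 ± 0.07, adjusted p = 1.91e-15). In TLR signalling Cd180, a relative of TLR4 on B cells, fell from 1078 to 361 (−1.58 ± 0.08), with 3481 counts with LPS, and Tlr4 fell from 281 to 182 (−0.62 ± 0.12). Tlr7 (0.56 ± 0.07) and its chaperone Unc93b1 (0.53 ± 0.13) rose.

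Of 15 Notch genes 5 fell, with the ligand Jag2 (from 881 to 355, −1.31 ± 0.21) after Notch3, and Dtx1, a target of Notch2 in B cells, rose (0.64 ± 0.18). Notch1 (−0.39 ± 0.14) and Notch2 (−0.13 ± 0.23) were not called.

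Chromatin genes held a divided family. Of 32 DNA methylation and Polycomb genes 9 rose and 6 fell. The rises included genes of the first Polycomb complex, with Phc1 (from 422 to 871, 1.05 ± 0.16), Ring1 (0.75 ± 0.12) and Pcgf5 (0.71 ± 0.15) among them. Its other catalytic subunit Rnf2 (−0.55 ± 0.05) and Pcgf3 (−0.69 ± 0.06) fell, as did Eed of the second complex (−0.67 ± 0.09), the methylcytosine oxidase Tet1 (from 653 to 236, −1.47 ± 0.12) and the maintenance pair Dnmt1 (−0.48 ± 0.11) and Uhrf1 (−0.49 ± 0.14). Of 23 BAF subunits 3 rose and 2 fell, of 32 Mediator subunits 5 rose and 3 fell, and of 29 elongation factors 3 rose and 5 fell, all near the background. Phf10 of the BAF complex (0.81 ± 0.18) and the elongation factor Leo1 (−0.85 ± 0.12) changed most.

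Genes of RNA control moved both ways. Cirbp, the cold-inducible RNA-binding protein, rose from 794 to 1464 (0.88 ± 0.11), and Tia1, a protein of stress granules that binds U-rich RNA, rose from 3265 to 3931 (0.27 ± 0.07, adjusted p = 0.000557). G3bp1 (−0.40 ± 0.08) and Tardbp (−0.36 ± 0.09) fell. Of 40 splicing factors 5 rose and 9 fell, with called changes under 0.5 on the log2 scale apart from 1 gene. That gene was Srsf12, with 6.07 counts with LPS, 101 with etoposide and a fall of 4.58-fold with KU55933 (−2.19 ± 0.23). Of 15 tested snoRNA host genes and nuclear long noncoding RNAs 5 rose, all of them snoRNA hosts, and 1 fell, the imprinted Kcnq1ot1 (−0.57 ± 0.12). Snhg5 rose from 1966 to 3930.2 (1.00 ± 0.16), Snhg6 from 1059 to 1991 (0.91 ± 0.12) and Gas5 from 9391 to 13369 (0.51 ± 0.06), while Malat1 was not called (−0.00 ± 0.25).

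The machinery of growth differed by list. Of 81 cytosolic ribosomal protein genes 1 was called, with a median of −0.03 and all values between −0.19 and 0.18. Ribosome biogenesis had 8 of 47 lower, near the background, and 40 values below 0 (median −0.22), with Utp20 (from 8553 to 4165, −1.04 ± 0.15) and the RNA polymerase I factor Rrn3 (from 6625 to 3912, −0.76 ± 0.12) falling most among the better known members. The 78 respiratory chain genes had 17 lower and 1 higher, with a median of −0.22, and the falls included genes of complex I, such as Ndufa5 (−0.86 ± 0.17) and Ndufb6 (−0.65 ± 0.15), and of cytochrome oxidase, such as Cox6b2 (−0.82 ± 0.11) and Cox4i1 (−0.45 ± 0.08). Proteasome subunits had 6 of 37 lower and 33 values below 0 (median −0.21). Their share of lower genes, 16.2%, was the same as that over all tested genes. In glycolysis, Ldhb fell from 151 to 25.3 (−2.58 ± 0.28), Pfkfb4 rose (0.51 ± 0.11), and Ldha (−0.67 ± 0.33) and Pkm (−0.48 ± 0.24) were not called, with standard errors of 0.33 and 0.24. Of 28 genes of cholesterol synthesis 3 fell.

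Other lists of growth and metabolism were near or under the background. Translation factors and their regulators had 4 higher and 9 lower of 61, with Eif1 (0.55 ± 0.14) highest and Eif4e3 (−0.72 ± 0.07) lowest of those called. Mitochondrial ribosomal proteins had 3 higher and 7 lower of 74. Of 20 genes around mTOR 2 rose and 5 fell, and the sestrins divided, since Sesn3 rose (0.59 ± 0.11) and Sesn1 fell (−0.44 ± 0.13). Of 21 hypoxia genes Vegfa (0.88 ± 0.16) and Arnt (0.52 ± 0.13) rose. Myc itself was not called (0.14 ± 0.17), and of its network Mxd1 rose (0.38 ± 0.09) and Mxd3 fell (−0.66 ± 0.15).

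Genes often used as references were not all steady. Of 16 genes 4 fell: Tuba1b from 11464 to 5930.2 (−0.95 ± 0.14), Hprt from 4359 to 2824 (−0.63 ± 0.08), Gusb from 2831 to 1991 (−0.51 ± 0.12) and Ppia from 36684 to 27342 (−0.42 ± 0.14). The fall of Ppia did not pass the threshold with scaling by totals or TMM factors. Actb (−0.09 ± 0.05), Ywhaz (−0.17 ± 0.06) and B2m (−0.05 ± 0.08) were not called.

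The direction of change varied with the genomic span of the gene. Protein-coding genes were ordered by the length from first to last annotated base (GENCODE M21, GRCm38) and divided into 10 groups of 1257 or 1258 genes. In the group with the longest span, of median 167 kb, 5.97% of genes were higher and 17.2% lower. In the second shortest group, of median 6.38 kb, 19.7% were higher and 15.1% lower. The median log2 fold change was 0.01 and −0.11 in the groups of shortest and longest span. GC content of the exons moved with the share of rises as well, from 10.4% of genes in the group of lowest content to 20.8% in that of highest. With genes grouped by mean count, 3.18% were higher in the lowest group, 21.2% in group 5 and 12.7% in the highest. Mean count differed between the span groups, with medians from 300.2 to 996 and 368 in the longest. The part of count, GC content and span in each other's values was not tested. At a minimum of 50 counts the longest group had 6.80% higher and 18.3% lower.

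**Figure D5:**
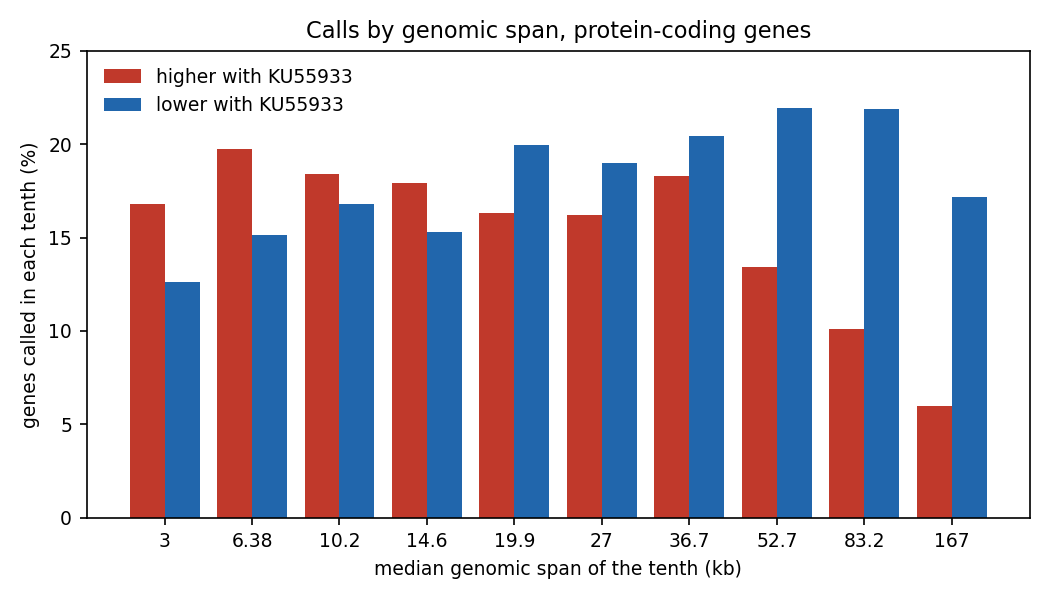
Percent of protein-coding genes higher (red) and lower (blue) with KU55933, in 10 groups of equal size ordered by genomic span, with the median span of each group in kb on the horizontal axis. The share of higher genes is 19.7% at 6.38 kb and 5.97% at 167 kb, while the share of lower genes is 12.6% in the shortest and 17.2% in the longest group.

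By gene type, 15.3% of 12571 protein-coding genes were higher and 18.0% lower. Of 380 long intergenic noncoding RNAs 5.53% were higher and 15.5% lower, at a median count of 35.4. Of 192 immunoglobulin V genes 2 were higher and 3 lower. The 89 snoRNAs that passed the filter had no call, at a median count of 21.2. Of 306 Zfp zinc finger genes 53 were higher and 44 lower, near the background.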

How the data were processed

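Poly(A) mRNA of splenic B cells was sequenced in 12 libraries, 4 for each of 3 conditions. The authors trimmed reads with Trim Galore and cutadapt 1.2.1, mapped them to GRCm38 with TopHat2 2.0.12, counted them with HTSeq on Ensembl genes and fitted DESeq2 1.6.3. The signal deposited for each library, in normalized counts of 29486 genes, was found to be the fitted mean of the condition times a size factor. The authors' deposited comparisons hold log2 fold changes and standard errors, moderated by their fit. Of these tables the standard errors of KU55933 with etoposide against etoposide were used, and the log2 fold changes only to set the scale between conditions. After that scaling, the log2 ratios of fitted means equalled the deposited fold changes to within 1.4e-14 for genes with a mean count over 100. For these genes the levels, fold changes, intervals and p-values given here therefore rest on moderated estimates. The other deposited columns (Wald scores, p-values) were not used.

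The scripts used pandas 2.3.3, numpy 2.4.6, matplotlib 3.10.9 and scipy 1.17.1 under Python 3.11.15. Columns were divided by the recovered size factors, which ran from 0.822 to 1.33. Genes with at least 10 normalized counts in at least 4 libraries and a deposited standard error were tested, 15567 of 15572. The log2 ratio of the fitted means was divided by the standard error, and two-sided normal p-values were adjusted by Benjamini-Hochberg over all tested genes, with 0.01 as the threshold. Confidence intervals (95%) were the fold change plus or minus the normal quantile times the standard error. The procedure was tested on simulated data. The labels number the replicates 1 to 4 and do not state whether they were separate animals or cultures.

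Gene families were written from general knowledge, and the members, lists and comparisons were chosen with earlier results of these data known. The rule for genes named asked for the 10 largest changes in each direction with a mean count of at least 100, the 2 largest called changes in each direction and the most abundant member of each family, every called member of families with at most 5 calls, Atm, Trp53 and cell type markers. Other members, and the genes in the plot of levels, were added as examples after their values were seen. GENCODE M21 covered 99.5% of tested genes. The alternatives tried were scaling by totals or TMM factors (trims of 30% and 5%), no filter, a minimum of 50 counts, pseudocounts of 1 and 5, an adjusted p of 0.05 and a minimum of 2-fold. A minimum of 10 counts in every library, protein-coding genes only and the ATF4 element were added once the data had been seen. Some genes that the rule names are not reported here.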

Additional observations from a re-analysis of the deposited data

How the results depend on the processing

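No paired analysis was possible because the deposited columns of a condition are proportional to each other and hold no spread between replicates. For the same reason leaving out each replicate in turn, a fit with the replicate number as a block, and limma on values per library were not run. Of the 15567 genes tested, 4577 were called. A minimum change of 2-fold left 968 genes, 272 higher and 696 lower, since it only removes calls. The other alternatives gave between 4143 (at least 10 counts in every library) and 5956 calls (adjusted p of 0.05). Scaling by library totals added 0.04 to every log2 fold change and gave 2403 higher and 2198 lower genes, and TMM factors gave 2380 and 2208. Of 318 genes named by the rule 6 were no longer called and 1 was newly called under each of these scalings, and none reversed. Cdkn1a, Ppia, Arid1a, Cetn2, Hsp90aa1 and Xcr1 were those that lost the call, and Nfkb2 gained it. Family medians moved by less than the median standard error of their members under each alternative, except that of replication-dependent histones, which was 1.53 at a minimum of 50 counts against 0.81. Under each scaling the number of members called higher moved by over 1.5 times in 9 families, and the number called lower in 5. NF-kB genes called higher went from 4 to 8, Myc network genes from 1 to 3, elongation factors from 3 to 5, splicing factors from 5 to 9 (totals) and 8 (TMM), and MHC class I genes called lower from 4 to 2. Depth limits the low genes, whose median standard error was 0.30 at a mean count under 100.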
